A study of Mus musculus with 48 samples.

Results

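The postsynaptic density scaffold genes described here are 9 mouse genes, Dlg2, Dlg3, Dlg4, Shank1, Shank2, Shank3, Homer1, Dlgap1 and Dlgap3, out of 54838 genes counted in each of 48 libraries. They were taken by name, with Ensembl identifiers matched to mouse symbols. All 9 were found and all 9 passed the filter on low counts in every fit.

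The libraries hold messenger RNA bound to tagged ribosomes (RiboTag) from the nucleus accumbens, a part of the ventral striatum that serves reward. In D1 libraries the tagged ribosomal protein Rpl22HA was switched on by Drd1Cre, and in D2 libraries by A2ACre, which acts in neurons that carry the dopamine D2 receptor. All mice of both lines thus carried Rpl22HA and a Cre driver, and each library pooled 4 punches of 14 gauge from each of 4 mice, so that a p-value speaks of pools and not of single mice. Male and female mice were on day 10 of abstinence from fentanyl, an opioid receptor agonist, or were in the water control groups, which gives 8 groups of 6 libraries in a study of negative affect in abstinence. The age of the mice is not given in the labels.

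Scaffold proteins of the postsynaptic density are stacked in layers under the membrane of excitatory synapses. Dlg proteins bind the tails of glutamate receptors, Dlgap proteins bind the Dlg layer to Shank proteins, and Shank and Homer proteins form a deeper mesh that reaches metabotropic receptors and actin. In the striatum, excitatory synapses lie mostly on spines of medium spiny neurons, and mice without Dlgap3 or Shank3 are known for repetitive grooming and altered corticostriatal synapses.

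The libraries held 20211543 to 42584762 reads in genes, D1 libraries 27153238 ± 2712615 and D2 libraries 32690424 ± 3511626 (SD, n = 24 each). Reads not assigned to a gene made up 23.13 to 32.57% of D1 and 17.72 to 22.23% of D2 libraries, with no overlap, and their part in the D1 to D2 differences was not tested. Values below are CPM, counts scaled to library size with TMM factors over all 48 libraries. The dopamine D1 receptor gene Drd1 had 490.1 ± 60.4 CPM in D1 water libraries and 50.9 ± 6.94 in those of D2 (SD, n = 12 each), and Drd2 had 58.3 ± 19.3 and 417.8 ± 34.6, so each pull-down was highest for its own marker. Markers of further cells were unequal. In D1 libraries 8 vascular markers summed to 7.05 to 16.3 CPM, 6 astrocyte markers to 205.8 to 469.2 and 6 oligodendrocyte markers to 290.8 to 456.2. In D2 libraries these sums were 205.4 to 399.2, 287.1 to 603.5 and 584.3 to 867.3 CPM, with overlap for astrocytes alone. Markers of GABA interneurons (6 genes) went the other way, at 479.3 to 1064.6 CPM in D1 against 110.8 to 182.4, as did 6 markers of pallial excitatory neurons, at 379.7 to 874.8 against 102.0 to 625.8 CPM with overlap. No gene of these lists was at 0 in either cell type. In bulk pull-downs, fewer cells of a type and less RNA per cell cannot be told apart.

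A group of 6 of the 24 D1 libraries stood apart on the first principal component of the genes other than these scaffolds and their synaptic partners, which held 45.1% of the variance within D1 groups over 9566 genes. They were D1 male fentanyl 1, male water 2 and 3, female fentanyl 4 and 5, and female water 6, so that each treatment lost 3 when they were left out. Their reads were also ambiguous between genes more often, at 4.926 to 6.146% against 4.553 to 4.864% in the other 18. Across 9632 genes, a gene's deviation in these libraries correlated with the GC content of its longest transcript at −0.51 (Spearman). Their astrocyte marker sum ran from 272.0 to 469.2 CPM against 205.8 to 330.2 in the others. Several scaffold genes moved with them, so results on D1 libraries are in several places given with and without these 6.

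Measured per length, the order of levels was led by the same pair in both cell types. In D1 libraries Dlgap3 stood at 29.9 ± 5.36 and Dlg3 at 28.4 ± 2.35 CPM per kb of exon (SD, n = 24), followed by Shank1 at 24.2 ± 4.04. Then came a middle set of Homer1 at 13.5 ± 1.60, Dlg4 at 11.4 ± 2.59, Dlg2 at 11 ± 0.717 and Dlgap1 at 10.7 ± 1.89. Shank3 at 6.66 ± 1.11 and Shank2 at 5.69 ± 0.787 were lowest. Among neighbours in this order, the ranges over libraries failed to overlap between Shank1 and Homer1 and overlapped between all others.

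In D2 libraries the levels per length were 29.2 ± 3.14 for Dlgap3 and 27.5 ± 1.18 for Dlg3, and Dlg4 took the third place at 13 ± 1.01 (SD, n = 24). Shank1 came after it, at 11.4 ± 2.19, close to Dlg2 at 10.8 ± 0.594 and Homer1 at 10.7 ± 1.10. Shank3 at 6.49 ± 0.692, Dlgap1 at 6.11 ± 0.983 and Shank2 at 3.61 ± 0.234 closed the order. Among neighbours, the ranges did not overlap between Dlg3 and Dlg4 or between Dlgap1 and Shank2, and overlapped between the others. These levels use all annotated exons of a gene as its length, which understates a gene whose neurons use short forms. That length is 17890 bases for Dlgap1 and 11976 for Homer1, whose longest transcripts have 7173 and 5713. For Dlg2 it is 16280 against 7813, and for Dlg4 13251 against 6326. The lengths are closer for Shank1 (10514 against 9826), Dlgap3 (4521 against 4207), Dlg3 (5844 against 5017), Shank2 (10768 against 8988) and Shank3 (9189 against 7365). The order, its middle set and its gaps in both cell types hold for the length over all exons only. They may change with another length, with which they were not computed.

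**Figure D1:**
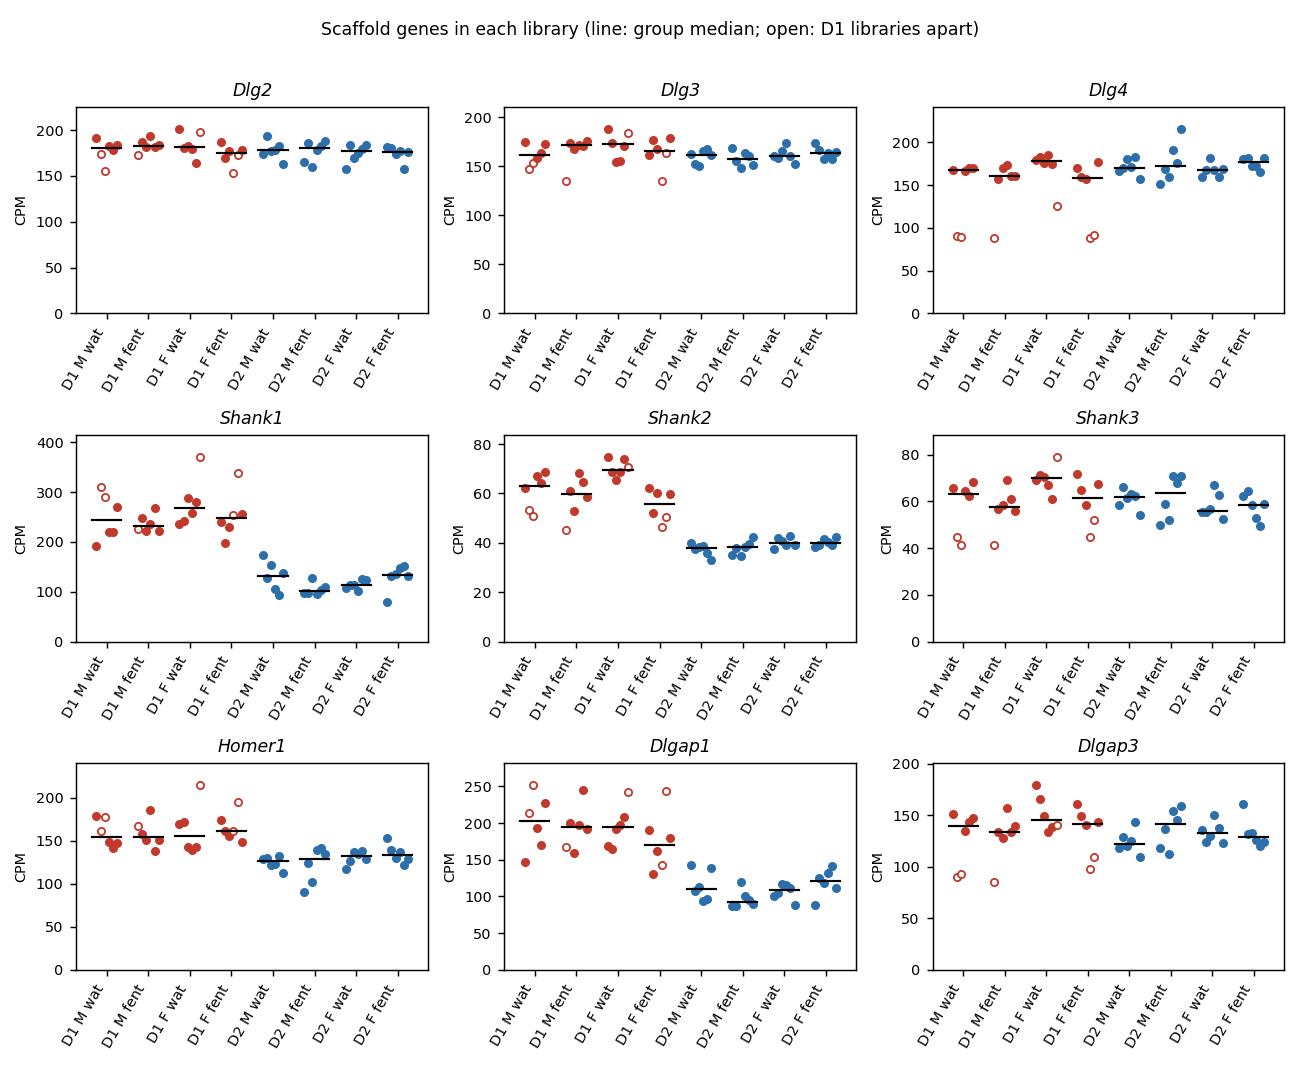
CPM of each scaffold gene (y axis, from 0) in the 6 libraries of each of 8 groups (x axis, M male, F female, wat water, fent fentanyl), D1 in red and D2 in blue, with the group median as a line. Shank1 and Shank2 lie higher in every D1 library than in any D2 library of the same treatment, a separation not counted over all genes. The 6 D1 libraries that stand apart (open) are the lowest for Dlg4, at 87.6 to 125.3 CPM.

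D1 water libraries were set against D2 water libraries, pull-downs from different mouse lines aimed at the 2 kinds of accumbens projection neuron. Neuron type, mouse line and the cell makeup of the pull-down cannot be told apart in this contrast. Shank1, Shank2, Dlgap1 and Homer1 were higher in D1 libraries, by 2.15-fold, 1.69-fold, 1.79-fold and 1.26-fold, and none of the 9 was lower. The other 5, which take in all 3 Dlg genes, Shank3 and Dlgap3, did not pass. As 4 of 9 genes passed by edgeR at an adjusted p under 0.05, while 53.4% of all 18270 genes tested did so, 26.8% as higher and 26.6% as lower in D1, the count itself is near the background. The median log2 difference of the 9 was 0.10, against −0.01 over all genes.

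Shank1 encodes a Shank scaffold, a protein that holds Dlgap and Homer proteins together (ENSMUSG00000038738, GRCm38 chromosome 7, 44310253 to 44360572). In D1 water libraries it ran from 191.1 to 370.8 CPM with a median of 264.4, and in D2 water libraries from 92.7 to 174.5 with a median of 118.2. Every D1 library thus lay above every D2 library. How many of all genes separate in this way was not counted, which holds for Shank2, Dlgap1 and Homer1 below too. The log2 difference was 1.11 (SE 0.095, 95% interval 0.92 to 1.3, edgeR with Benjamini-Hochberg adjusted p = 5.46e-14). Without the 6 D1 libraries that stand apart it was 0.98 (edgeR adjusted p = 1.68e-12). Of its exonic bases, 3.22% overlap the gene 1700008O03Rik, and the library kit keeps no strand.

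Shank2, a second Shank scaffold (ENSMUSG00000037541, chromosome 7, 144001928 to 144424494), ran from 50.9 to 74.8 CPM in D1 water libraries, with a median of 67.8. In D2 water libraries it ran from 33.1 to 42.6 with a median of 39.0. The groups did not overlap, and D2 libraries were tightly set. The log2 difference was 0.76 (SE 0.054, 95% interval 0.65 to 0.87, edgeR adjusted p = 9.65e-17), and 0.81 without the 6 libraries.

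Dlgap1 links the Dlg layer to Shank proteins (ENSMUSG00000003279, chromosome 17, 69969073 to 70821413). It ran from 147.5 to 251.7 CPM around a median of 195.2 in D1 water libraries, and from 88.8 to 143.0 around 109.5 in D2 water libraries. Again all D1 libraries were above all D2 libraries. The log2 difference was 0.84 (SE 0.092, 95% interval 0.65 to 1.02, edgeR adjusted p = 1.05e-10), and 0.74 without the 6 libraries.

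Homer1 encodes a scaffold that ties Shank proteins to metabotropic glutamate receptors, and a short activity-induced form of it loosens these ties (ENSMUSG00000007617, chromosome 13, 93299635 to 93405129). The counts are per gene, so long and short forms are summed. It ran from 138.9 to 214.5 CPM around a median of 154.6 in D1 water libraries and from 111.9 to 138.0 around 128.8 in D2. The lowest D1 library stood just above the highest D2 library. The log2 difference was 0.34 (SE 0.065, 95% interval 0.21 to 0.47, edgeR adjusted p = 1.98e-05), and 0.27 without the 6 libraries (edgeR adjusted p = 0.000327).

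The upstream sequences of Homer1, Shank3 and Dlgap3 are shown because Homer1 is the scaffold gene known for induction by activity, and because the other pair had the highest correlation of the 9 over 48 libraries, described further on. Each is the 250 bases before a RefSeq start on GRCm38.p6, plus strand, 5′ to 3′, and capitals mark matches to TGACGT or its reverse complement ACGTCA, the core of the site known to bind CREB. Homer1 lies at chr13:93303507-93303756, Shank3 at chr15:89499358-89499607 and Dlgap3 at chr4:127172630-127172879.
Homer1: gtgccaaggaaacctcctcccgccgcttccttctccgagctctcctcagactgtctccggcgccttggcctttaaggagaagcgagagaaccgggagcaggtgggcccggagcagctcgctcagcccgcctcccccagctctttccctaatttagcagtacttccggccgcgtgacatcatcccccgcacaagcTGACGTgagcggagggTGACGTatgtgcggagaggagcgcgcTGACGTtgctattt
Shank3: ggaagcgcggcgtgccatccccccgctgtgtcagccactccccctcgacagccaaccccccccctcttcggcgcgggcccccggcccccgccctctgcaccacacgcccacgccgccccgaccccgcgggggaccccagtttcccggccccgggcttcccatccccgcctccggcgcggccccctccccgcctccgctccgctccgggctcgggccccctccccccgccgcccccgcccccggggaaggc
Dlgap3: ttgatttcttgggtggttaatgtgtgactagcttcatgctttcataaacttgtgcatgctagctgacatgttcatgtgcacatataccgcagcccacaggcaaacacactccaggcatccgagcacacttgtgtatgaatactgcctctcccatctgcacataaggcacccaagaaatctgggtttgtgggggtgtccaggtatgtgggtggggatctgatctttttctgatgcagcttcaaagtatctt
The Homer1 window holds 3 matches, and 0.152% of all 32851 promoter windows of this length hold 3 or more, while 6.5% hold at least 1, where a window with both strands' cores overlapping counts 2. Of 14 windows of 7 scaffold genes, this one alone held a match, and the other Homer1 window, at chr13:93307784-93308033, held 0. Shank3 and Dlgap3 differ in base makeup, with 82.4% and 46.8% G and C against a median of 52.4% over all windows. The Homer1 window shown has 62.4%, and the rate of matches was not taken from windows of like base makeup. A match is a description of letters and not of binding.

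Levels of Homer1 and of activity genes were also set side by side over 48 libraries. Deviations of Homer1 from group means had r below 0 with 7 of 9 activity genes, at −0.45 for Junb, −0.44 for Npas4, −0.44 for Dusp1, −0.40 for Nr4a1, −0.37 for Arc, −0.28 for Fos and −0.13 for Egr4. They had r above 0 with Egr1 (0.12) and Fosb (0.32). No p is given, as the libraries share depth and dissection. These r are given over 48 libraries only, with the D1 libraries that stand apart among them. In those libraries Homer1 had a mean log2 deviation of 0.2 from the other D1 libraries. Their part in these r was not tested. Of 9 activity genes tested between the cell types in water, edgeR called 4 as lower in D1 and none as higher. Of all genes tested, 26.6% were lower and 26.8% higher. Scaled on medium spiny neuron genes, a setting described further on, 2 were higher and 2 lower. That setting moves the median over all genes to 0.23, and its counts over all genes are given there. Arc, an activity-induced synaptic gene, had a log2 difference of −0.70 (edgeR adjusted p = 0.000913) and Egr1, an activity-induced transcription factor gene, of 0.08.

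The other 5 genes had log2 differences between −0.12 and 0.10, and their ranges overlapped between the cell types. Dlg2, a receptor-binding scaffold of the Dlg layer (ENSMUSG00000052572, chromosome 7, 90476672 to 92449247), ran from 154.8 to 201.5 CPM around a median of 181.4 in D1 water libraries and from 157.2 to 193.7 around 177.9 in D2. Its log2 difference was 0.03 (95% interval −0.04 to 0.11). Dlg3, the member of that layer on the X chromosome (ENSMUSG00000000881, 100767722 to 100818410), ran from 146.9 to 188.5 CPM around 167.3 in D1 and from 150.9 to 173.6 around 161.2 in D2, a log2 difference of 0.05 (−0.04 to 0.13).

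Shank3, the remaining Shank scaffold (ENSMUSG00000022623, chromosome 15, 89499623 to 89560261), ran from 41.5 to 79.1 CPM around a median of 66.3 in D1 water libraries and from 52.3 to 67.2 with a mean of 59.6 ± 4.9 (SD, n = 12) in D2, a log2 difference of 0.09 (95% interval −0.07 to 0.25). Of its exonic bases 2.95% overlap the gene Gm15609. Dlgap3, the Dlgap member best known from striatum (ENSMUSG00000042388, chromosome 4, 127169204 to 127237022), ran from 89.8 to 179.4 CPM around 142.1 in D1 and from 109.6 to 150.8 around 127.0 in D2, a log2 difference of 0.10 (−0.07 to 0.28). In both genes the D1 range took in the D2 range. Both passed once the 6 libraries were left out, Shank3 at 0.16 (edgeR adjusted p = 0.0198) and Dlgap3 at 0.21 (edgeR adjusted p = 0.00261), so that 6 of 9 genes were then higher in D1. In that fit 9882 of all 18610 genes passed, 4900 as higher and 4982 as lower. These intervals bound differences of the 5 genes at the pool level and do not show that the cell types are alike.

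Dlg4 encodes the chief scaffold of the Dlg layer, which anchors NMDA receptors and the partners of AMPA receptors (ENSMUSG00000020886, chromosome 11, 70016942 to 70047522). It ran from 89.8 to 185.3 CPM in D1 water libraries, with a median of 170.0, and from 156.7 to 182.4 in D2 water libraries, with a median of 168.4. The spread in D1 came from the libraries that stand apart, which held 87.6 to 125.3 CPM over both treatments, while the other 18 held 157.5 to 185.3. The log2 difference in water was −0.12 (95% interval −0.33 to 0.09, edgeR adjusted p = 0.361) and turned to 0.04 without the 6 (edgeR adjusted p = 0.396).

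**Figure D2:**
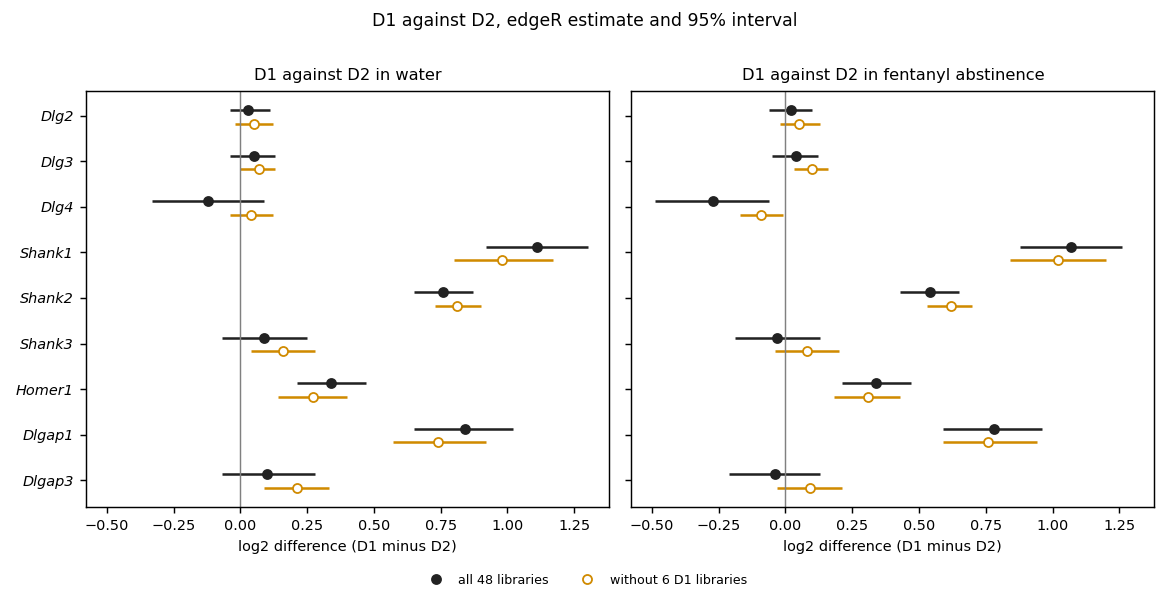
Log2 difference between D1 and D2 libraries (x axis, D1 minus D2) for each scaffold gene (y axis) in water and in fentanyl abstinence, as edgeR estimates with 95% intervals from all 48 libraries (filled) and without the 6 D1 libraries that stand apart (open). Shank1, Shank2, Dlgap1 and Homer1 lie above 0 in both panels and in both fits, and Dlg4 moves from −0.27 to −0.09 in the fentanyl panel when the 6 libraries are left out.

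In fentanyl abstinence the same contrast gave 4 genes higher in D1 libraries, Shank1 at a log2 difference of 1.07, Dlgap1 at 0.78, Shank2 at 0.54 and Homer1 at 0.34 (edgeR adjusted p from 1.53e-13 to 2.08e-05). Dlg4 was lower in D1 at −0.27 (SE 0.106, edgeR adjusted p = 0.0271). In this contrast 54.1% of all genes passed, 26.9% as higher and 27.2% as lower. Shank1 and Shank2 again did not overlap between the cell types, with 198.5 to 339.1 against 79.4 to 151.2 CPM for Shank1 and 45.0 to 68.4 against 34.6 to 42.5 for Shank2. For Dlgap1, 11 of 12 D1 libraries were above all D2 libraries, and for Homer1 8 of 12. Such separation was not counted over all genes. The Dlg4 call rested on the libraries that stand apart: without them its difference was −0.09 (edgeR adjusted p = 0.0564), and Dlg3 then passed at 0.10 (edgeR adjusted p = 0.00856).

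The scaling between cell types sets where 0 lies. When libraries were scaled on 14 genes that mark medium spiny neurons of either type, the median over all genes moved from −0.01 to 0.23, and D1 water libraries had 8886 higher and 2015 lower genes, against 4900 and 4858 in the TMM fit. On that scale 8 of 9 scaffold genes passed as higher, with Dlg2 at 0.27, Dlg3 at 0.29, Shank3 at 0.32 and Dlgap3 at 0.34, near the shift of all genes. Shank1 at 1.35, Dlgap1 at 1.09, Shank2 at 1.00 and Homer1 at 0.58 lay above that shift, and Dlg4 at 0.11 lay under it. The part of vascular, glial, interneuron and pallial RNA in these differences was not tested.

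The share of a gene within its own family does not depend on the scaling. Taken per kb of exon, Shank1 made up 65.5 ± 5.37% of the Shank1, Shank2 and Shank3 sum in D1 water libraries and 53.3 ± 4.92% in D2 (SD, n = 12 each). Shank3 made up 18.3 ± 3.28% in D1, with a range of 12.3 to 23.0%, and 30.0 ± 3.69% in D2, with a range of 23.8 to 35.9%. The Shank3 share of every D1 library was thus below that of every D2 library, while Shank2 held 16.1 ± 2.29% and 16.6 ± 1.76%. By permutation of libraries with Benjamini-Hochberg adjustment over 21 share tests, the Shank1 difference of 12.2 points (p = 4e-05, adjusted p = 0.00042) and the Shank3 difference of −11.7 points (p = 2e-05, the smallest that the permutations can give, adjusted p = 0.00042) passed. The Shank2 share did not (−0.496 points, permutation adjusted p = 0.74). Shares of a family are tied, so a higher Shank1 level by itself lowers the Shank3 share. In CPM, Shank3 stood at 63.8 ± 10.7 in D1 water libraries and 59.6 ± 4.9 in D2, so its mean level was not lower in D1.

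Dlgap1 made up 27.0 ± 6.67% of the Dlgap1 and Dlgap3 sum in D1 water libraries and 17.9 ± 3.02% in D2. The permutation difference was 9.09 points (p = 0.00016, adjusted p = 0.00112). All these share levels are per kb of annotated exon and depend on that length. In plain reads Dlgap1 made up 58.7 ± 7.77% in D1 and 46.1 ± 4.83% in D2, a difference that also passed (permutation adjusted p = 0.00112). Within Dlg2, Dlg3 and Dlg4 no share passed. Dlg3 held 55.6 ± 3.03% and 53.8 ± 1.65%, Dlg4 22.8 ± 3.90% and 25 ± 0.976%, and Dlg2 21.7 ± 1.43% and 21.2 ± 1.14% in D1 and D2. In plain reads Dlg3 held 33.2 ± 2.53% in D1 and 31.8 ± 1.45% in D2, and again no Dlg share passed. Without the 6 libraries, the differences were 9.65 points for Shank1, −10.3 for Shank3 and 6.05 for Dlgap1, and all 3 passed (permutation adjusted p = 0.00121, 0.000143 and 0.00867). In males alone, the Shank1 and Dlgap1 differences of 11.3 and 10.1 points did not pass (exact permutation adjusted p = 0.114 for both), and in females alone all 3 did.

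**Figure D3:**
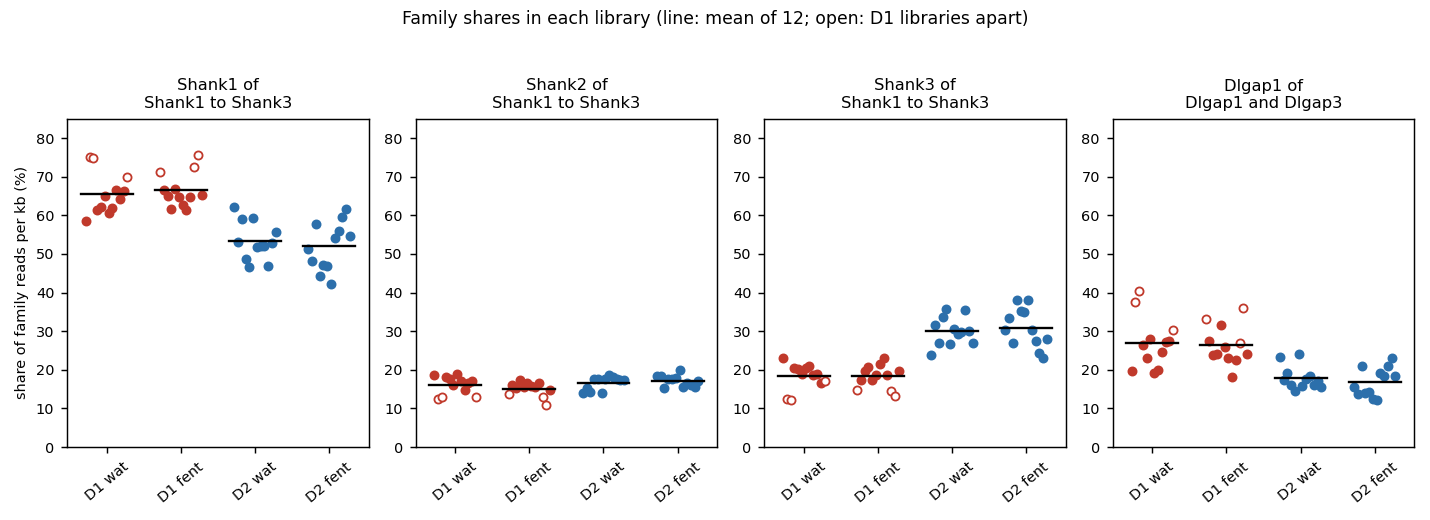
Share of each gene in the per-kb read sum of its family (y axis, percent) in the 12 libraries of each cell type and treatment (x axis), D1 in red and D2 in blue, with the mean as a line and the 6 D1 libraries that stand apart as open circles. The Shank3 share in water lies at 12.3 to 23.0% in D1 and 23.8 to 35.9% in D2. The Shank1 share goes the other way with overlap, at 58.5 to 75.1% in D1 and 46.6 to 62.2% in D2, and the Shank2 share is level.

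Of 67 other genes of the postsynaptic density and its partners, 66 were tested. In water, 49 were higher in D1, 4 were lower and 13 did not pass by edgeR, with a median log2 difference of 0.28 against −0.01 over all genes. Over all genes, 26.8% were higher, 26.6% lower and 53.4% called either way, beside which these counts and those of the lists within are set. Over both treatments, 6 pan-neuronal markers also summed higher in D1, at a mean of 6852.6 against 5900.5 CPM (n = 24 each). The 14 genes that mark medium spiny neurons of either type summed lower, at 11882.1 against 14108.3 CPM. The part of neuronal RNA as a whole in the postsynaptic differences was not tested. Of 28 further scaffolds 18 were higher and 4 lower, of 10 glutamate receptor and auxiliary genes 9 were higher, of 16 signalling enzymes 14, and of 10 adhesion partners 7. Among the larger differences upward were those of Homer2, a relative of Homer1 (21 ± 5.28 against 10.5 ± 3.03 CPM, log2 1.00), and Grip2, an AMPA receptor scaffold (log2 0.76). Next came Agap2 (0.74), Mpdz, a scaffold with many PDZ domains (0.68), and Adam22, an adhesion protein that binds Dlg4 (248.5 ± 13.9 against 163.2 ± 7.15 CPM, log2 0.61). Lower in D1 were Lin7b (−0.26), the actin regulator Baiap2 (−0.19) and Sharpin, a Shank partner (−0.15), while the other lower gene averaged under 2 CPM. All 8 genes named here had an edgeR adjusted p of 0.0372 or less. Scaled on the shared medium spiny neuron genes, 61 of the 66 were higher and 1 was lower, and that scale moves the median of all genes upward as given above. Without the 6 D1 libraries 51 were higher and 3 lower.

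Fentanyl abstinence was compared with water within each cell type. None of the 9 scaffold genes passed in D1 or D2 libraries, and by edgeR 0 of 16782 genes passed in D1 (639 at an unadjusted p under 0.05, DESeq2 3, limma voom 0) and 0 of 17706 in D2 (783 unadjusted, DESeq2 0, limma voom 0), so percent called was 0 in both. In D1 the log2 differences of the 9 ran from −0.20 to 0.01, with 1 above 0 and a median of −0.09, and in D2 from −0.08 to 0.07, with 4 above 0. The 95% intervals of the 9 lay within −0.39 and 0.20 in D1 and within −0.26 and 0.18 in D2.

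Shank2 had the smallest p of the 9 in D1. It ran from 50.9 to 68.7 CPM with a median of 63.1 in male water and from 45.0 to 68.4 with a median of 59.8 in male fentanyl libraries. In females it ran from 65.6 to 74.8 with a median of 69.7 in water and from 46.3 to 62.3 with a median of 55.8 in fentanyl libraries. The groups overlapped in males and did not overlap in females, a separation not counted over all genes. The log2 difference over both sexes was −0.20 (SE 0.069, 95% interval −0.35 to −0.06, edgeR unadjusted p = 0.00674, adjusted p = 1), and in females −0.35 (edgeR unadjusted p = 0.00148, adjusted p = 0.807), with 0% of all genes called in females. In males it was −0.06, and the difference between the sexes was −0.29 (edgeR unadjusted p = 0.0461, adjusted p = 0.993). Without the 6 libraries, the difference was −0.27 in females (edgeR adjusted p = 0.853) and −0.10 in males, and over both sexes −0.19 (edgeR unadjusted p = 0.000846, adjusted p = 0.832), with 52.0 to 68.4 CPM in 9 fentanyl and 62.1 to 74.8 in 9 water libraries. In D2 the Shank2 difference was 0.01 (95% interval −0.06 to 0.09), and the difference in response between the cell types was −0.22 (SE 0.076, edgeR unadjusted p = 0.00515, adjusted p = 1), which did not pass. For that difference in response, 0 of 18270 genes passed by edgeR (825 unadjusted, DESeq2 6, limma voom 0).

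Dlg4 in D1 ran from 89.8 to 185.3 CPM in water and from 87.6 to 176.5 in fentanyl libraries, a log2 difference of −0.09 with a wide interval of −0.39 to 0.20. Without the 6 libraries it held 167.0 to 185.3 CPM in water and 157.5 to 176.5 in fentanyl, and the difference of −0.08 had an interval of −0.14 to −0.02 (edgeR unadjusted p = 0.0151, adjusted p = 0.925). The SE was 0.142 with the 6 libraries and 0.029 without them. Homer1, whose short form is induced by activity, ran from 138.4 to 195.0 CPM in D1 fentanyl libraries and from 90.9 to 153.0 in those of D2, and both overlapped their water groups. Its log2 difference was 0.01 (95% interval −0.12 to 0.15) in D1 and 0.01 (−0.11 to 0.12) in D2.

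**Figure D4:**
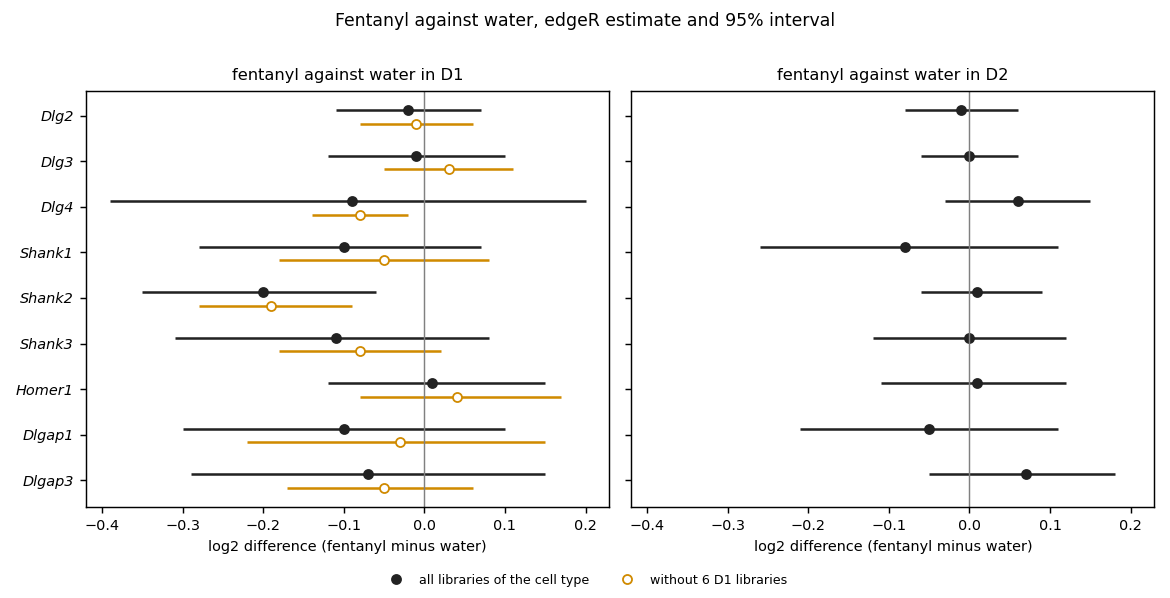
Log2 difference between fentanyl and water libraries (x axis, fentanyl minus water) for each scaffold gene (y axis) in D1 and in D2, as edgeR estimates with 95% intervals from all libraries of the cell type (filled) and, in D1, without the 6 libraries that stand apart (open). No gene passed an adjusted p of 0.05, and the interval of Shank2 in D1 lies below 0 at −0.35 to −0.06.

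In D2 libraries Shank1 and Dlgap1 had opposite differences in the sexes. In D2 males Shank1 ran from 92.7 to 174.5 CPM with a median of 132.2 in water and from 94.6 to 127.1 with a median of 100.8 in fentanyl libraries. In D2 females it ran from 101.6 to 126.5 with a median of 113.3 in water and from 79.4 to 151.2 with a median of 134.1 in fentanyl libraries. All these groups overlapped. The log2 differences were −0.33 in males (edgeR unadjusted p = 0.0164, adjusted p = 0.693) and 0.18 in females, and their difference was 0.52 (edgeR unadjusted p = 0.00922, adjusted p = 0.577). Dlgap1 stood at −0.26 and 0.17, with a difference of 0.43 (edgeR unadjusted p = 0.00927, adjusted p = 0.577), and neither passed.

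No scaffold gene passed in any single sex, in the difference between the sexes or for females against males in water. For the latter, 0.0477% of genes passed in D1 (0.0179% higher and 0.0298% lower in females) and 0.0847% in D2 (0.0339% and 0.0508%). The response of each sex in D1 called 0 genes by edgeR in males (464 unadjusted, DESeq2 4, limma voom 2) and in females (964 unadjusted, DESeq2 0, limma voom 0). In D2 it called 0 in males (1234 unadjusted, DESeq2 1, limma voom 0) and in females (838 unadjusted, DESeq2 4, limma voom 1). The sex difference in response called 0 in D1 (674 unadjusted, DESeq2 4, limma voom 0) and 0 in D2 (1458 unadjusted, DESeq2 8, limma voom 0). Of the 14 family shares tested between fentanyl and water none passed, with permutation adjusted p from 0.668 to 0.996. Among the 66 other postsynaptic genes none passed in either cell type by edgeR (3 at an unadjusted p under 0.05 in D1 and 1 in D2), and the median was −0.02 in D1 with 28 above 0. In D1, Ppp1r9a, which encodes an actin-binding spine protein, stood at 425.6 ± 26.9 CPM with fentanyl and 475.0 ± 66.9 with water (log2 −0.15, edgeR adjusted p = 1). Nlgn2, an adhesion protein of inhibitory synapses, stood at 86.8 ± 10.5 and 99.6 ± 16.5 CPM (log2 −0.19, edgeR adjusted p = 1), and Trio, a guanine nucleotide exchange factor, had a log2 difference of −0.15. With the smallest p upward, Nos1, the neuronal nitric oxide synthase, and Sharpin stood at 0.10 and Cacng3, an AMPA receptor auxiliary subunit, at 0.07. In D2 the same rule gave Tanc1 at 0.12, Iqsec1 and Magi2 at 0.06, Trio at −0.08, Nos1 at −0.10 and Ephb2, a receptor for ephrins, at −0.13.

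Between libraries of one group, the scaffold genes did not vary as one set. Deviations from the group means, in log2 CPM, were correlated for each of 36 pairs of genes, as a description of libraries that share depth, dissection and cell makeup. Over all 48 libraries r ran from −0.53 to 0.89, with 24 pairs above 0 and a median of 0.23. Shank3 and Dlgap3 were the closest pair over 48 libraries (r = 0.89) and in the 24 D2 libraries (0.84). In the 18 D1 libraries that do not stand apart they had r = 0.63, below Shank1 with Dlgap1 at 0.89, Homer1 with Dlgap3 at 0.80, Dlg2 with Dlgap3 at 0.71 and Shank2 with Dlgap1 at 0.67. Both genes had lower means in the 6 libraries that stand apart than in the 18 (Shank3 50.6 against 64.7 CPM, Dlgap3 102.8 against 146.2). Of the 6, D1 female water 6 was not low, at 79.1 CPM for Shank3 and 140.5 for Dlgap3. Homer1 followed Dlgap3 in the same sets, with r = 0.80 in D2 and 0.80 in the 18 D1 libraries, but with r = 0.18 over all 48.

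Shank1 and Dlgap1 formed a second pair, with r = 0.80, 0.76 and 0.89 in the same order. Shank1 with Dlgap3 had r = −0.53 over 48 libraries, −0.64 in D2 and −0.29 in the 18 D1 libraries, and Dlgap1 with Dlgap3 had −0.30, −0.48 and −0.21. With Shank3 the sign differed between sets, at −0.31, −0.36 and 0.12 for Shank1 and −0.14, −0.26 and 0.15 for Dlgap1. The correlation of Dlg4 with Dlgap3 rested in part on the libraries that stand apart, since r was 0.85 over 48, 0.66 in D2 and 0.21 in the 18. In those 6 libraries the mean log2 deviation from the other D1 libraries was −0.79 for Dlg4, −0.50 for Dlgap3, −0.37 for Shank3, −0.26 for Shank2, −0.15 for Dlg3 and −0.08 for Dlg2, and 0.31 for Shank1, 0.20 for Homer1 and 0.19 for Dlgap1. In the same order, the GC content of the longest transcript was 46.8%, 63.9%, 62.4%, 55.0%, 50.4% and 44.3%, and 61.4%, 36.9% and 50.9%. The part of GC content in these deviations was not tested.

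**Figure D5:**
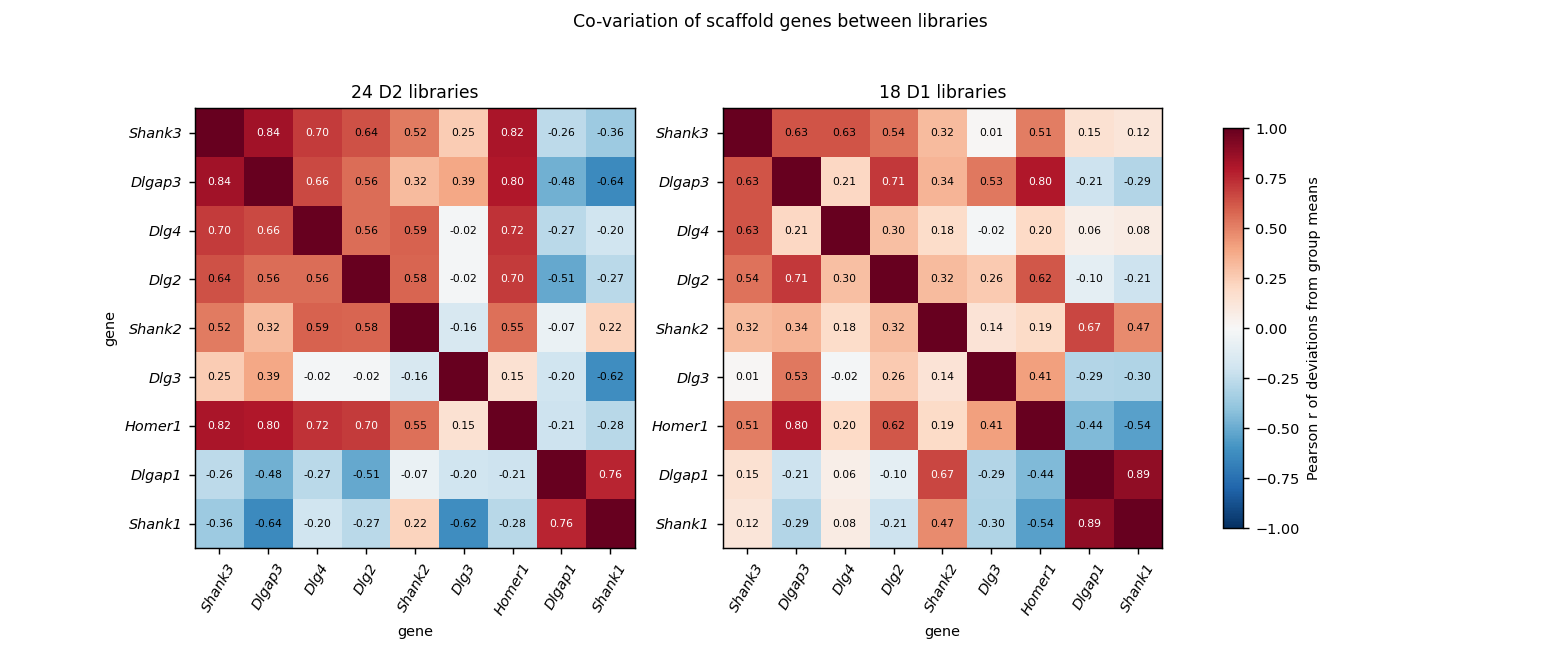
Pearson r of the deviations from group means for each pair of scaffold genes (both axes), in the 24 D2 libraries and in the 18 D1 libraries that do not stand apart, from blue (−1) to red (1). Shank1 and Dlgap1 correlate with each other at 0.76 and 0.89, and Shank3 with Dlgap3 at 0.84 and 0.63.

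Among 12482 genes searched over 48 libraries, the gene whose deviations were most like those of Shank1 was Slc8a1, a sodium-calcium exchanger (r = 0.92, with 0.90 in D2 and 0.87 in the 18 D1 libraries). For Dlgap1 it was Ppm1e, a phosphatase (0.91, 0.92 and 0.92), for Dlgap3 Fbxl16 (0.93, 0.93 and 0.91) and for Homer1 Zfp827 (0.81, 0.84 and 0.53). For Shank3 it was Dlgap3 itself. The likeness of Dlg4 to the splicing factor gene U2af2 was 0.97 over 48 libraries but 0.68 and 0.54 in the subsets, and that of Shank2 to Elfn2, an adhesion protein gene, was 0.84, 0.48 and 0.74. For Dlg2 it was S100pbp (0.82, 0.81 and 0.64) and for Dlg3 Agpat3, a lipid acyltransferase gene (0.79, 0.25 and 0.83). Next over 48 libraries came Ipcef1 and Kcnh7 for Shank1, Cadps and Cdk14 for Dlgap1, Coro2b and Mink1 for Dlgap3, Zfp365 and Mbnl1 for Homer1, and Coro2b and Tnrc18 for Shank3. They were Prrc2a and Dynll2 for Dlg4, Camk2a and Smap2 for Shank2, Ago2 for Dlg2, and Mapk8ip3 and Neurl1a for Dlg3, and r was 0.96 or less for all of these.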

How the data were processed

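The authors deposited one table of raw counts per library, whole numbers of reads over exons per Ensembl gene, which were used as deposited. TopHat2 2.0.8, HTSeq and GRCm38 are named in the submitters' processing notes as aligner, counter and build; the release of HTSeq, its annotation and its strand option are not given in the sources used here. Per the labels' protocols, 10 ng of RNA per library went into Smart-Seq v4 library preparation, without strand marks or molecular identifiers. Intervals cover the spread between libraries, in which differences between pools and those of library preparation cannot be told apart. HTSeq's summary lines, 23.13 to 32.57% of reads in D1 and 17.72 to 22.23% in D2 libraries, were left out of all totals. Gene names, coordinates and exon lengths came from GENCODE M21, promoter windows from RefSeq on GRCm38.p6.

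Tests used edgeR 4.0.16 in R 4.3.3 (TMM, filterByExpr with a count minimum of 10, quasi-likelihood, Benjamini-Hochberg over all genes at 0.05, two-sided, 95% t intervals), fitted to 48 libraries for cell types and to 24 within each. Family shares were tested by permutation with 100000 resamples, or exactly for 6 against 6. DESeq2 1.42.0, limma 3.58.1 voom, RLE and medium spiny neuron scaling, no filter, a replicate block, a non-neuronal covariate and left-out libraries were alternatives, and leaving out 6 D1 libraries was chosen after seeing the data. The scripts were tested on simulated data. Libraries with the same replicate number showed no clear pairing in their deviations, and no 2 libraries among 120 pairs were copies. The scaffold genes are named in every comparison. Of the other postsynaptic genes, the 6 with the largest passing difference each way and a mean CPM of at least 2 are named for D1 against D2, and for fentanyl the 3 with the smallest p each way, apart from items that are not reported here. The genes and lists were chosen with earlier results of these data known.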

Additional observations from a re-analysis of the deposited data

Results flagged for a closer look

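In 72 groups of 6 libraries, one per scaffold gene and group, 6 held a library far from the other 5 by Dixon's test, where chance alone gives about 1 in 20. Of these, 3 were in D1 libraries that stand apart. Dlg4 stood at 87.6 CPM in D1 male fentanyl 1, with the others at 157.5 to 173.0, and at 125.3 CPM in D1 female water 6, with the others at 174.9 to 185.3. Dlg3 stood at 135.6 CPM in D1 male fentanyl 1 against 168.2 to 176.2. In D2 female fentanyl 1, Shank1 was at 79.4 CPM against 131.7 to 151.2 and Dlgap3 at 160.7 CPM against 120.0 to 132.4, in opposite directions. This library is itself among those behind the r of −0.64 of the pair in D2, which was not computed without it. In the 18 D1 libraries that do not stand apart, r of the pair was −0.29. Dlg2 was at 157.7 CPM in D2 female fentanyl 5 against 174.1 to 181.2.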

How the results depend on the processing

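Of the values of single scaffold genes under settings other than leaving out 1 library, 317 kept their direction and their side of the threshold, 9 passed only there, 2 no longer passed and 32 changed sign. The D1 to D2 calls of Shank1, Shank2, Dlgap1 and Homer1 held under each of these settings in both treatments. DESeq2, voom, RLE scaling, the replicate block and fits on one treatment gave 4 and 5 scaffold genes, and scaling on medium spiny neuron genes gave 8 in both treatments, where Dlg4 was 0.11 in water. Without the 6 D1 libraries Dlg4 was 0.04 in water. In fentanyl abstinence, Shank3 was 0.01 by voom, 0.23 on medium spiny neuron scaling and 0.08 without the 6, and Dlgap3 was 0.03, 0.22 and 0.09.

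The other changes of sign were in values near 0 that never passed, and their cause was not tested. For the difference in response they were Dlg2 at 0.00 by voom, by medium spiny neuron scaling and without the 6, Dlg3 at 0.04, 0.00 and 0.03, Homer1 at 0.04, 0.02 and 0.04 and at 0.00 with no filter, and Shank1 at 0.03 and Dlgap1 at 0.02 without the 6. In D1 fentanyl, Dlg2 was 0.00 by voom and Dlg3 was 0.03 by voom and without the 6. In D2 fentanyl, Dlg3 was 0.00 with no filter, Shank2 was −0.00 and Homer1 −0.02 on medium spiny neuron scaling, and Homer1 was −0.01 with a non-neuronal covariate. There Shank3 was 0.00 by RLE, DESeq2, the replicate block and 1 fit of 48 libraries, and 0.01 with no filter.

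Of shares, in males alone the Shank1 and Dlgap1 differences between cell types were 11.3 and 10.1 points and did not pass (exact permutation). Shares that changed sign were Dlg2 between cell types at −0.105 points with Dlg1 added and −0.107 without the 6, and Shank2 at 0.581 in males and 0.617 without the 6. With fentanyl in D1 they were Dlg3 at −0.707, Dlg4 at 0.702, Shank1 at −0.0997 and Shank3 at 0.293 in males, and Dlgap1 at 0.286 in females and 0.495 without the 6. With fentanyl in D2 females they were Shank1 at 2.86, Shank2 at −1.02, Shank3 at −1.84 and Dlgap1 at 1.95.

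With each library left out in turn, Shank1 stayed at 1.05 to 1.16, Shank2 at 0.73 to 0.77, Dlgap1 at 0.78 to 0.87 and Homer1 at 0.30 to 0.36 between cell types in water, passing in all 48 fits. Values that crossed 0 were, for the difference in response, Dlg2 (−0.03 to 0.00), Dlg3 (−0.02 to 0.02), Homer1 (−0.04 to 0.05) and Shank1 (−0.09 to 0.01). In D1 fentanyl they were Dlg3 (−0.03 to 0.02) and Homer1 (−0.02 to 0.05). In D2 fentanyl they were Dlg2 (−0.02 to 0.01), Dlg3 (−0.01 to 0.01), Homer1 (−0.01 to 0.04), Shank2 (−0.00 to 0.03) and Shank3 (−0.02 to 0.03). Genes called between cell types in water ranged from 9505 to 9982.

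Counts over all genes moved by more than 1.5 times in few places. DESeq2 called 6 genes for the difference in response, 3 for fentanyl in D1, 4 in D1 males, 1 in D2 males, 4 in D2 females, and 4 and 8 for the sex difference in D1 and D2, where edgeR called 0. Voom called 2 in D1 males and 1 in D2 females, and the fit with no filter 1 in D2 females. For females against males, DESeq2 called 13 against 8 in D1 water, and in D2 water DESeq2 called 97, voom 24 and medium spiny neuron scaling 8, against 15. The replicate block gave 9692 genes in water, 9796 in fentanyl abstinence and 0 for fentanyl in D1 and D2. Of 24 pairs of libraries with the same number, deviations correlated at −0.091 to 0.133, with 1 over 0.1. These deviations showed no clear pairing by number, and shared handling of libraries was not tested. The lowest count of a scaffold gene in a library was 917 reads in Shank3.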
